A study of Mus musculus with 185 samples.

Results

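Acta2 encodes smooth muscle α-actin (αSMA), and the cells described here are activated, lineage-traced cells of the infarcted mouse heart sorted into those with Acta2 mRNA and those without it. They were chosen by the Acta2 value itself. A cell counts as Acta2-detected above 5 TPM (transcript abundance as a fraction of the cell total), which is 2.58 on the deposited log2 (TPM+1) scale, and as Acta2-undetected otherwise. Of the 185 cells of the series, 152 of them from infarcts, 71 are members, namely 27 activated Postn-traced cells, of which 15 were Acta2-detected and 12 were not, and 44 activated Tcf21-traced cells, of which 22 were detected and 22 were not. Because the split uses Acta2, the Acta2 values are a description, and so is every gene difference between the groups of the split.

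The study followed the origin of cardiac myofibroblasts with inducible Cre alleles and captured single cells on the Fluidigm C1 system for RNA sequencing. The Postn-traced cells come from Postn MCM/+; R26-eGFP mice and the Tcf21-traced cells from Tcf21 MCM/+; R26-eGFP mice, in which MerCreMer, knocked into the Postn or the Tcf21 locus and activated by tamoxifen, switches on eGFP for good. The mice were C57BL/6 (backcross N=6) and approximately 5 months of age, and infarction (MI) was by permanent ligation of the left coronary artery. Cells of the infarct region were sorted as negative for CD31 and CD45, and eGFP was read by microscopy in the capture device. The paper dates both the Postn-traced and the activated Tcf21-traced cells to 7 days after MI, and in its tracing of Tcf21 mice after MI tamoxifen ended before surgery. Postn tracing marks cells in which the Postn locus was active during tamoxifen, and Tcf21 tracing marks cells in which the Tcf21 locus was, so neither trace names the state of a cell at capture. The full labels also say Postn+ for the Postn-traced and TCF21+ for the Tcf21-traced cells. Postn was above 5 TPM in all 27 Postn-traced cells. The 27 and the 44 cells come from different captures, so class and capture cannot be told apart, and the classes are set side by side and not against each other. No label names the mouse of a cell, so each class is 1 sample, no test was run, and every SD is between cells.

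Smooth muscle α-actin is an actin isoform of vascular smooth muscle that myofibroblasts take up into stress fibres, and it is the marker most used to name a myofibroblast in the injured heart. Its gene is a classic target of serum response factor (SRF) with the myocardin-related coactivators MRTF-A and MRTF-B, which bind actin monomers and enter the nucleus as monomers are used up. SRF binds a motif called the CArG box, which many genes of the contractile apparatus carry near their start. Resting cardiac fibroblasts express Tcf21, matrix and complement genes and little αSMA.

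In the Postn-traced cells, Acta2 in log2 (TPM+1) had a lowest value of 4.88, a median of 7.52 and a highest of 10.23 among the 15 detected cells, and 11 of the 12 undetected cells were listed at 0, with 1.71 in the remaining cell. No Postn-traced cell lay near the threshold. In the Tcf21-traced cells the 22 detected values had a lowest of 2.69, a median of 7.02 and a highest of 11.10. The 22 undetected values went from 0, in 14 cells, to 2.21, so the members closest to the threshold of 2.58 were 2.69 inside and 2.21 outside. The Acta2-detected share was 55.6% of the Postn-traced cells (exact 95% Clopper-Pearson interval 35.3% to 74.5%) and 50% of the Tcf21-traced cells (34.6% to 65.4%), intervals which here and throughout cover counting error only. Actb, the gene of cytoplasmic β-actin, was above 0 in all 71 cells, and so were Gapdh, Eef1a1 and Rpl13a, genes of glycolysis and translation. A read of 100 bases from Acta2 could be placed, since 0 of the 2096 stretches of that length in its annotated transcripts occurred in a transcript of another gene, and for Tagln it was 0 of 1525.

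The label of these cells was checked against marker genes. At least 3 of 6 fibroblast genes (Col1a1, Col3a1, Pdgfra, Tcf21, Dcn and Lum) were above 5 TPM in all 71 cells. Of the 6 smooth muscle markers, the 5 other than Acta2 reached 3 in 0 cells of either class, Acta2-detected cells included. Myh11, smooth muscle myosin heavy chain, was above 5 TPM in 0 of the 37 detected cells and in 1 undetected Postn-traced cell. Cnn1, calponin of differentiated smooth muscle, was above it in 1 detected Tcf21-traced cell, and Smtn was the most abundant of the 5 in each group, with a mean between 2.92 and 58.1 TPM. Of the pericyte genes, at least 3 of 6 were found in 1 detected Tcf21-traced cell, and their summed level in that class had a mean of 62.3 TPM in detected and 63.1 TPM in undetected cells, with Rgs5 the most abundant in the former and Kcnj8 in the latter. Endothelial, myeloid, cardiomyocyte and epicardial lists reached 3 genes in 0 cells. Their summed levels still differed in places, with a mean of 8.79 TPM in detected against 201 TPM in undetected Postn-traced cells for cardiomyocyte genes, Myl2 the most abundant in the latter, and of 3.65 against 28.9 TPM in Tcf21-traced cells for endothelial genes, and their part in the differences below was not tested. At least 1 of the 5 smooth muscle genes was above 5 TPM in 4 of 15 detected against 7 of 12 undetected Postn-traced and in 14 of 22 against 5 of 22 Tcf21-traced cells. Acta2-detected cells thus carried the fibroblast markers. Of the smooth muscle markers other than Acta2, the detected Tcf21-traced cells carried mainly Smtn, above 5 TPM in 13 of 22. In detected Postn-traced cells Smtn was above it in only 3 of 15. The summed level of the 6 fibroblast genes was lower in detected cells, with means of 16732 against 21384 TPM in Postn-traced and 12099 against 17898 TPM in Tcf21-traced cells, and Dcn, the proteoglycan decorin, was the most abundant in each group.

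**Figure D1:**
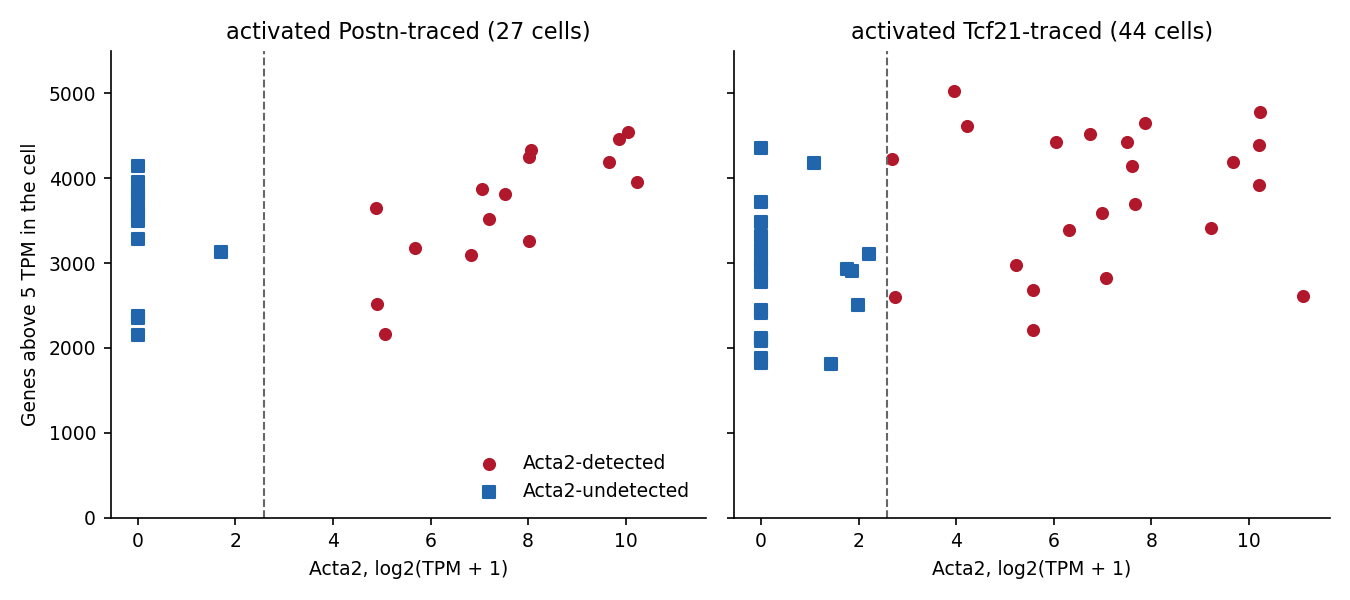
Each point is a cell, with Acta2 in log2 (TPM+1) on the horizontal axis and the number of genes above 5 TPM on the vertical axis, and the dashed line marks the threshold of the split at 2.58. Detected and undetected cells overlap in genes per cell in both classes, and the shift between them is larger in the Tcf21-traced cells.

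The number of genes above 5 TPM in a cell stands in for its depth, which is not known. Acta2-detected Postn-traced cells had between 2165 and 4541 such genes, with a median of 3813, and undetected cells had between 2155 and 4141, with a median of 3532.5. The medians differed by 280.5 genes, or 7.94%, which is less than the SD of 703 genes in detected and 672 genes in undetected cells. In Tcf21-traced cells the detected cells had between 2214 and 5023, median 4031.5, and the undetected cells between 1815 and 4359, median 2881. Here the medians differed by 1150.5 genes, or 39.9%, more than the SD of 833 and 718 genes. The ranges overlapped in both classes, and the count of detected cells above the median of the undetected ones was 9 of 15 in Postn-traced and 17 of 22 in Tcf21-traced cells. Acta2-detected Tcf21-traced cells thus came with broader detection of the whole transcriptome, and in Postn-traced cells the shift was small. Among detected cells alone, the Acta2 level and the genes per cell had a Spearman correlation of 0.79 over 15 Postn-traced and 0.10 over 22 Tcf21-traced cells, where the cells of a class share a capture and both measures come from the same library.

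A gene was considered when it was above 5 TPM in at least 25% of the cells of each class, which kept 4262 of 17171 genes. The filter takes detected and undetected cells of a class together. A gene rare in undetected cells can thus pass through the detected cells alone, and the reverse. A difference is the mean log2 (TPM+1) of detected minus that of undetected cells, and a gene is counted when it exceeds 1 log2 unit. In Postn-traced cells 1097 genes were higher in detected cells (25.7% of those considered) and 532 lower (12.5%). The Tcf21-traced cells had 1777 higher (41.7%) and 196 lower (4.6%). In both classes 566 genes were higher (13.3%) and 62 were lower (1.45%). The 566 are 51.6% of the genes higher in Postn-traced and 31.9% of those higher in Tcf21-traced cells, and the 62 are 11.7% and 31.6% of the lower ones. Opposite directions were found for 28 genes higher in Postn-traced and lower in Tcf21-traced cells and for 186 the other way round. Across the 4262 genes, which are not independent replicates, the differences of the 2 classes had a Pearson correlation of 0.20, or 0.0752 after the adjustment described next. Apart from the genes higher in Postn-traced cells, most genes that separated detected from undetected cells in a class were therefore not shared with the other.

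The median difference over all considered genes was 0.25 in Postn-traced and 0.78 in Tcf21-traced cells, so a gene had to pass a general upward shift to be counted as lower. Centring each cell on the median of its genes above 5 TPM enlarged the shift to 0.35 and 1.09. A linear regression on genes per cell within each class brought it to -0.03 and 0.00, and with this adjustment 159 genes were higher in both classes (3.73%) and 186 lower (4.36%). Of the 566 genes 152 were among these, and of the 62 genes 51 were. Of the genes then higher in Postn-traced cells 21.5% were higher in Tcf21-traced cells, against 18.3% of all considered genes, and for the lower ones it was 23% against 18.1%. After adjustment the classes thus shared little more than the share over all genes. Of the genes counted in both classes, 90.1% were higher in the main comparison and 46.1% after the regression. With the difference averaged within the cells below and above the class median of genes per cell, 68.2% were higher, with means taken in TPM 57.7%, and without the cells under 2500 genes 75.8%. The surplus of higher genes thus moved with genes per cell, and the part of depth in it was not tested. For each list below, the adjusted median or count stands beside the unadjusted one.

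**Figure D2:**
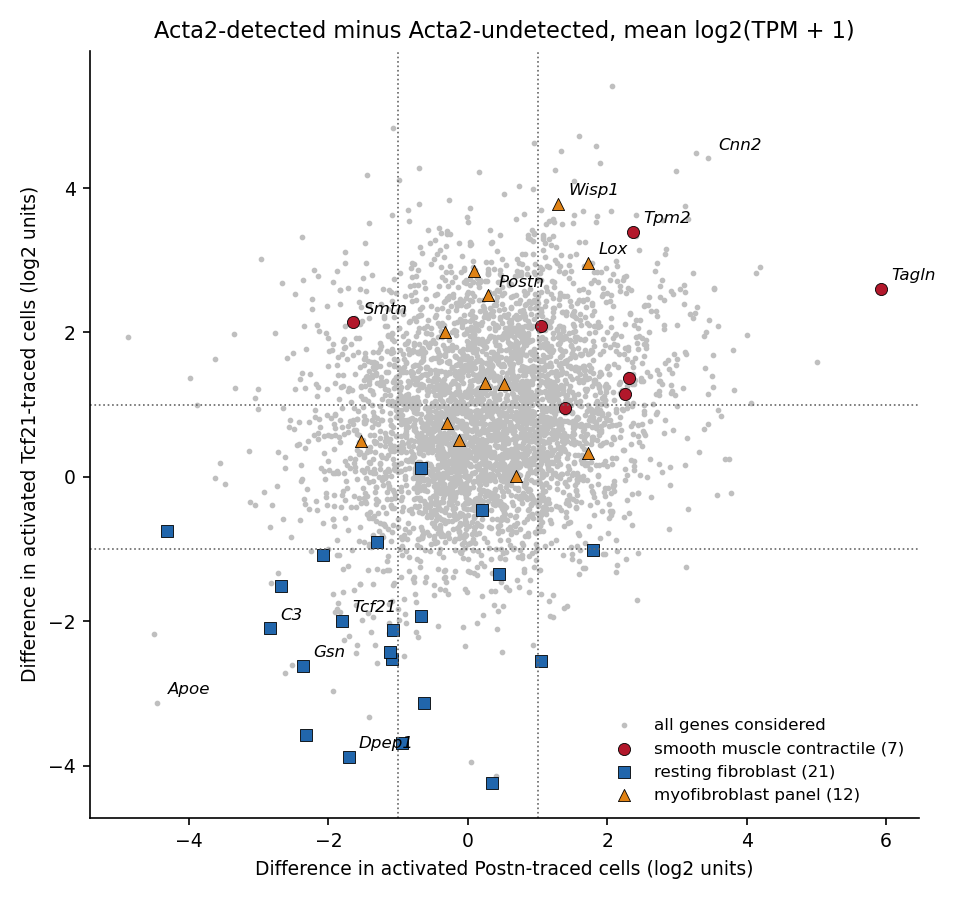
Each grey point is 1 of 4262 genes, placed by its difference (detected minus undetected, log2 units) in Postn-traced cells on the horizontal and Tcf21-traced cells on the vertical axis, with dotted lines at 1 and -1. Contractile genes lie to the upper right with Tagln farthest out and Smtn apart, resting fibroblast genes mostly lie low, and the myofibroblast panel spreads along the vertical axis.

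The contractile genes that share the SRF pathway with Acta2 come first. Of 17 listed genes, 7 were considered, and their median difference was 2.25 in Postn-traced and 2.09 in Tcf21-traced cells, or 1.39 and 1.26 after the regression. In both classes 5 of the 7 were higher, against 13.3% of all considered genes, and 0 were lower, and after the regression 2 were higher, Tpm2 and Myl9, against 3.73%. Tagln encodes transgelin (SM22α), an actin-bundling protein and the most used SRF target besides Acta2. In Postn-traced cells Tagln had a lowest value of 0, a median of 8.35 and a highest of 12.13 in detected cells, against 0, 0 and 8.42 in undetected cells. It was above 5 TPM in 12 of 15 (51.9% to 95.7%) against 2 of 12 (2.09% to 48.4%), and the means of 7.22 ± 4.15 and 1.29 ± 2.72 differed by 5.93, more than the SD of either group. The ranges overlapped, as 3 detected cells were at 0 and the highest undetected cell lay above the detected median. In Tcf21-traced cells Tagln was in 15 of 22 against 8 of 22, with means of 5.35 ± 3.91 and 2.74 ± 4.03, a difference of 2.61 that is within the SD and fell to 0.67 after the regression, against 5.58 in Postn-traced cells. The Tagln difference thus kept its size after adjustment in Postn-traced cells and fell under the size counted in Tcf21-traced cells.

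Tpm2, a tropomyosin that lies along actin filaments, had medians of 6.74 in detected against 2.42 in undetected Postn-traced cells and of 4.32 against 0 in Tcf21-traced cells. Its difference was 2.37 in the former and 3.40 in the latter, and 2.16 and 1.54 after the regression. Tpm2 was above 5 TPM in 14 of 22 detected (40.7% to 82.8%) against 4 of 22 undetected Tcf21-traced cells (5.19% to 40.3%). Myl9, the regulatory myosin light chain, was in 10 of 15 against 5 of 12 Postn-traced and in 9 of 22 against 3 of 22 Tcf21-traced cells, with differences of 2.31 and 1.37. Like Tpm2 it had cells at 0 in each group, so the ranges overlapped widely. Cald1, the actin-binding caldesmon, was above 5 TPM in all but 1 cell of each group except the 22 detected Tcf21-traced cells, where it was in all, and differed by 1.06 and 2.09. Tpm1 differed by 2.25 in Postn-traced cells, where it was above 5 TPM in 15 of 15 against 9 of 12. In Tcf21-traced cells its difference was 1.15, which turned to -0.35 after the regression and to -0.30 when any Acta2 above 0 counted as detected. Tpm1 thus had no steady direction in the Tcf21-traced cells.

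Myl6, the essential light chain of non-muscle and smooth muscle myosin, was above 5 TPM in all 71 cells. In detected Postn-traced cells Myl6 lay between 10.10 and 13.03 with a median of 11.64, and in undetected cells between 6.03 and 11.76 with a median of 10.71. The difference was 1.39 there and 0.96 in Tcf21-traced cells, just under the size counted. Smtn, smoothelin of contractile smooth muscle, went in opposite directions, with -1.65 in Postn-traced cells (3 of 15 against 5 of 12) and 2.14 in Tcf21-traced cells (13 of 22 against 4 of 22). The remaining 10 listed genes were too rare to be considered and are named after their values were seen. Acta1 and Actc1, the striated muscle actins, were above 5 TPM in 0 cells, Actg2, the enteric smooth muscle actin, in 1, Mylk, the kinase of Myl9, in 4, and Des, desmin, in 3. Lmod1, a smooth muscle actin nucleator, was in 3 cells and Synpo2, a Z-line protein, in 4. Csrp1, a LIM protein of smooth muscle, stood out among them, in 6 of 15 detected (16.3% to 67.7%) and 0 of 12 undetected Postn-traced cells (up to 26.5%) and in 7 of 22 (13.9% to 54.9%) and 0 of 22 Tcf21-traced cells (up to 15.4%). The considered genes that accompanied Acta2 before adjustment were thus the actin and myosin regulators Tagln, Tpm2, Myl9, Cald1 and Tpm1. Of these Tpm1 had no steady direction in the Tcf21-traced cells. Csrp1, too rare to be considered, was above 5 TPM in detected cells only, while Cnn1, Myh11, Actg2 and Lmod1 were almost wholly undetected.

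**Figure D3:**
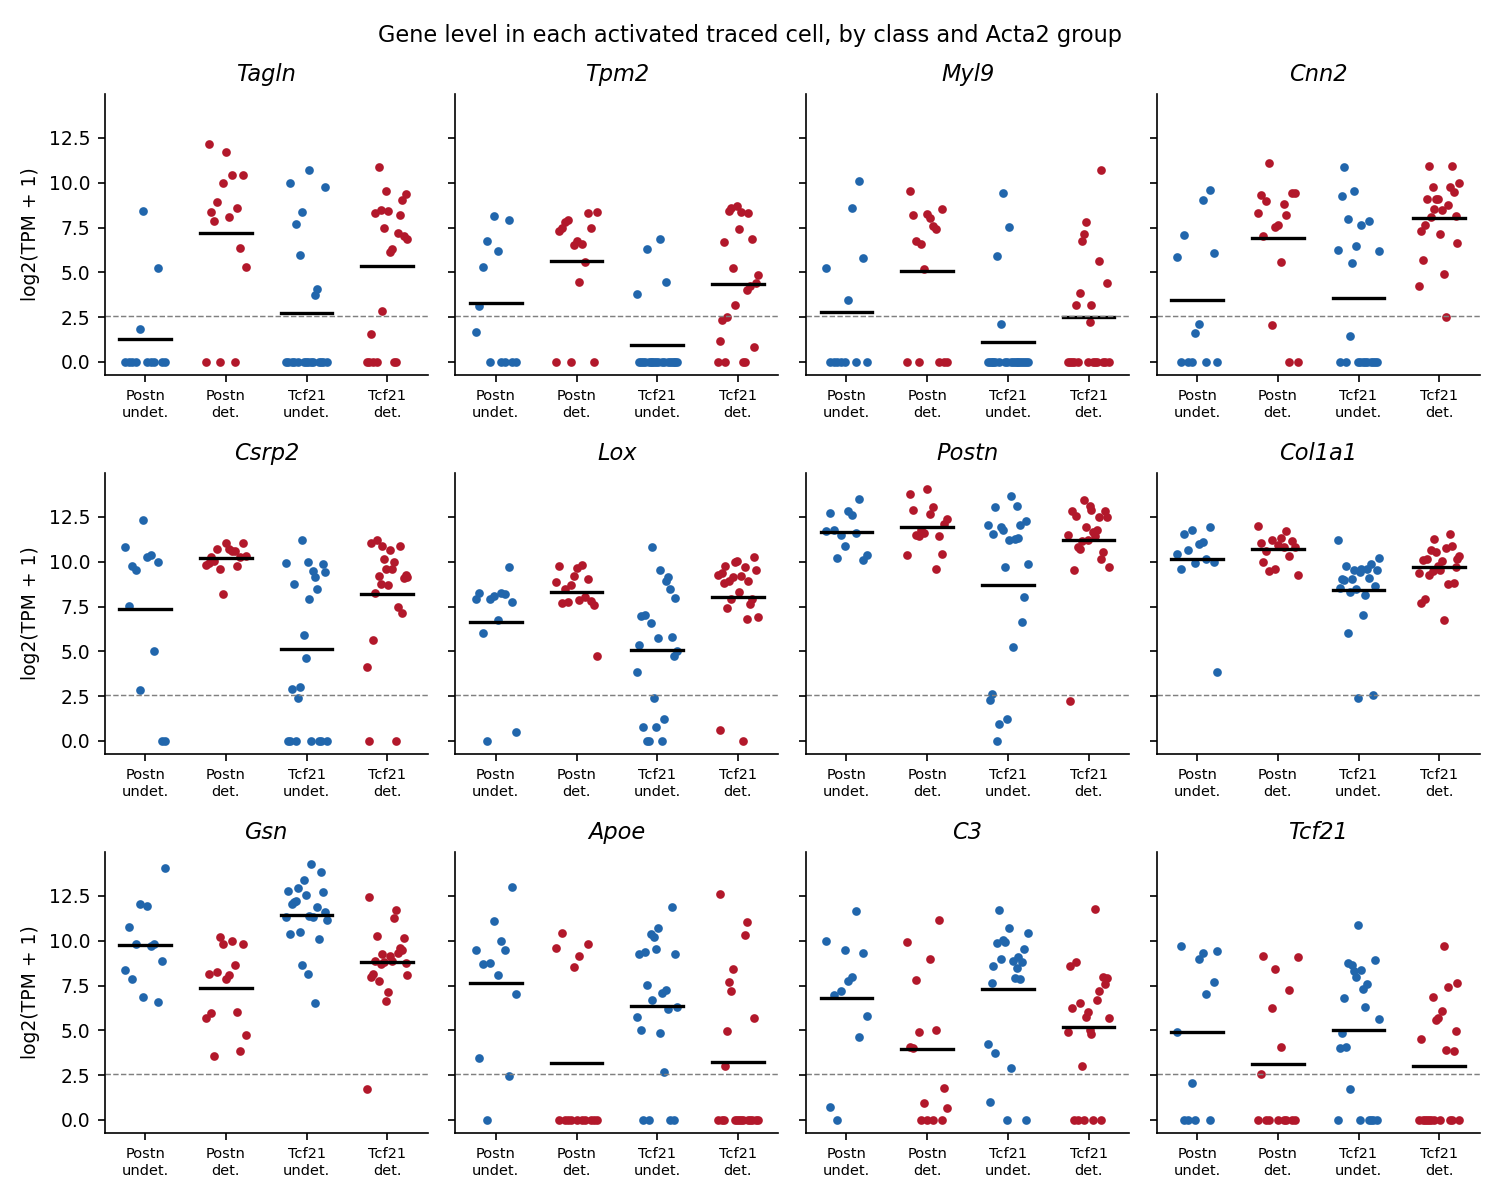
Each point is a cell, with log2 (TPM+1) on the vertical axis, blue for Acta2-undetected and red for Acta2-detected cells of each class, a bar at the mean and a dashed line at 5 TPM. Tagln, Tpm2 and Cnn2 have fewer cells at 0 among detected cells, Postn and Col1a1 barely differ in the Postn-traced cells, and Gsn and Apoe are lower in detected cells of both classes.

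Since the contractile list is built on targets of SRF, promoters of its considered genes, whichever way they differed, are shown where they hold the letters of the CArG box. The windows are those of RefSeq, from 250 bases before to 50 bases after the start on GRCm38.p6, looked up for Acta2 and the contractile genes Tagln, Smtn, Cald1, Tpm1, Tpm2, Myl9 and Myl6, and 7 of these 8 genes, all but Tagln, had 9 windows. The CArG box is a pair of C, then 6 bases that are each A or T, then a pair of G, and both strands were searched. It was found in 2 of the 9 windows, and a copy with 1 G or C among the middle 6 bases was allowed as well, which brought the windows to 3. Of 32851 promoters of all genes, 1.63% held the box and 9.98% held either form. The Acta2 window, chr19:34255324-34255623 on the minus strand, holds 2 of the relaxed copies, which begin 84 and 34 bases before the start. The Myl9 window, chr2:156775214-156775513 on the plus strand, holds a box and a relaxed copy, 161 and 99 bases before the start, and 1 of the 2 Myl6 windows, chr10:128492960-128493259 on the minus strand, holds a box 50 bases before it. The sequences run 5′ to 3′ in the direction of the gene, and capitals mark the matches. A match is a description, not a site or a cause.
Acta2: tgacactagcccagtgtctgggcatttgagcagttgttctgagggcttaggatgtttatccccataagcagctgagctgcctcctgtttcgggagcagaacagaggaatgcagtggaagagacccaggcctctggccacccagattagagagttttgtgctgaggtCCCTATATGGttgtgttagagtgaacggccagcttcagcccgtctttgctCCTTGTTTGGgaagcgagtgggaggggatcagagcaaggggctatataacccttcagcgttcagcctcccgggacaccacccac
Myl9: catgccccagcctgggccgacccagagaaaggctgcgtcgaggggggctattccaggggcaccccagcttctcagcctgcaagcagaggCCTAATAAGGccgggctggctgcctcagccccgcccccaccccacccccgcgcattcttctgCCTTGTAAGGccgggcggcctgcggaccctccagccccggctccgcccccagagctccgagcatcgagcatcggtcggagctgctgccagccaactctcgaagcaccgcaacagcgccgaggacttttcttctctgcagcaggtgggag
Myl6: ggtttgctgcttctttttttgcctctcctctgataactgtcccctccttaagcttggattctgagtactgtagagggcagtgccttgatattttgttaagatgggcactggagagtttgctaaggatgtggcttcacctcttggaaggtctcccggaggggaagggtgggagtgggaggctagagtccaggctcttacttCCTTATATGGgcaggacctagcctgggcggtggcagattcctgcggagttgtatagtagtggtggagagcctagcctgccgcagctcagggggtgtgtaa

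Of the SRF and MRTF axis, 7 of 10 listed genes were considered. Among SRF, the MRTFs and myocardin only Mkl2 was one of the 7, so the medians mostly describe other genes of the list. They were 1.29 in Postn-traced and 0.84 in Tcf21-traced cells, the latter turning to -0.18 after the regression, to -0.10 within the cells below and above the class median of genes per cell and to -0.13 with means in TPM. The Postn-traced median was 0.67 after the regression. Csrp2 and Hspb1 were higher in both classes, 2 of 7 against 13.3% of all considered genes, and after the regression 0 genes were, against 3.73%. Csrp2, a LIM protein of actin bundles, had values between 8.21 and 11.02 in detected Postn-traced cells, all 15 above 5 TPM, while undetected cells went from 0 to 12.34. Its difference was 2.82, and in Tcf21-traced cells 3.08, or 0.71 after the regression. Csrp2 was thus uniformly high in detected Postn-traced cells and scattered in undetected ones, which reached as high. Hspb1, a small heat shock protein that caps actin, was less frequent, in 6 of 15 against 2 of 12 and in 14 of 22 against 7 of 22 cells, with differences of 1.29 and 1.84. Of the factors themselves, Srf, Mkl1 (MRTF-A) and Myocd (myocardin) were rare. Srf was above 5 TPM in 5 against 1 cells in each class, Mkl1 in 1 against 1 and 4 against 0, and Myocd in 1 undetected Postn-traced cell. Mkl2 (MRTF-B), named after its values were seen, was common, in 12 of 15 against 8 of 12 and in 11 of 22 against 11 of 22 cells. Its differences were 0.65 and -0.02.

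Among 25 genes of the actin cytoskeleton and adhesion, 24 were considered, with medians of 1.26 and 1.12, or 1.07 and 0.68 after the regression. In both classes 8 of the 24 were higher, against 13.3% of all considered genes, and 0 lower, and after the regression 4 were higher, against 3.73%, Cnn2, Actn1, Myh9 and Pdlim5. Cnn2, calponin 2 of non-muscle actin, was the gene with the largest shared difference of all 4262. In Postn-traced cells Cnn2 had values of 0, 8.19 and 11.08 (lowest, median, highest) in detected cells and 0, 1.86 and 9.57 in undetected cells. In Tcf21-traced cells these were 2.50, 8.50 and 10.93 against 0, 0.72 and 10.88. Cnn2 was above 5 TPM in 21 of 22 detected (77.2% to 99.9%) and 10 of 22 undetected Tcf21-traced cells (24.4% to 67.8%), and its differences of 3.45 and 4.42 stayed at 2.46 and 3.64 after the regression. Unlike its smooth muscle relative Cnn1, it was therefore common, and its absence was largely a feature of undetected cells. Zyx, zyxin of focal adhesions, differed by 2.47 and 2.18, the latter 0.03 after the regression. The other 6 are alpha-actinins Actn1 (1.83 and 4.58) and Actn4 (1.51 and 2.27), vinculin Vcl (2.44 and 2.06, the latter 0.68 after the regression), tropomyosin Tpm3 (1.12 and 2.15), non-muscle myosin Myh9 (1.28 and 1.34) and the PDZ-LIM protein Pdlim5 (3.13 and 1.71), named here because the count is small and chosen after their values were seen. Actn1 in Tcf21-traced cells was in 22 of 22 detected cells at no less than 7.12 and in 13 of 22 undetected cells. Of the 8, Myh9 had the tightest values, with SDs of 0.79 and 0.99 in Postn-traced and 0.73 and 1.14 in Tcf21-traced cells, so that its difference exceeded the spread in both classes. Actb itself, at 13.18 ± 0.54 against 12.19 ± 0.79 and 13.41 ± 0.35 against 12.82 ± 0.70, differed by 0.99 and 0.59.

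Of the myofibroblast panel of the study without Acta2, 12 of 13 genes were considered, and their median difference was 0.27 in Postn-traced and 1.29 in Tcf21-traced cells, or 0.03 and 0.58 after the regression. In Postn-traced cells the median within the cells below and above the class median of genes per cell was -0.01, so it had no direction. Only Lox and Wisp1 of the 12 were higher in both classes, against 13.3% of all considered genes, and 0 were lower in both. Of these Lox remained after the regression, against 3.73% of all considered genes. Postn, the gene of the matricellular protein periostin that marks this lineage, lay between 9.60 and 14.08 with a median of 11.78 in detected Postn-traced cells and between 10.09 and 13.48 with a median of 11.65 in undetected ones. The difference of 0.29, which vanished within the cells below and above the class median of genes per cell, was smaller than the SD, and the ranges overlapped almost fully. In Tcf21-traced cells Postn was above 5 TPM in 21 of 22 detected and 18 of 22 undetected cells, with medians of 11.58 and 11.23, and its difference of 2.52 fell to 0.13 after the regression. Of the 5 Tcf21-traced cells without Postn, 1 was Acta2-detected, and 4 more undetected cells lay between 2.64 and 8.01, under the 9.56 that was the lowest of the other detected cells. The medians were thus similar with and without Acta2, and in Tcf21-traced cells low Postn values were mostly in undetected cells.

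The fibrillar collagens of the panel differed by less than 1 log2 unit in the Postn-traced cells. Col1a1, a chain of type I collagen, had medians of 10.84 against 10.55 in Postn-traced cells and 9.90 against 9.02 in Tcf21-traced cells, differences of means of 0.52 and 1.29. Col1a2, its partner chain, differed by 0.25, or -0.02 within the cells below and above the class median of genes per cell, and by 1.30, and Col3a1, of type III collagen, by -0.30 and 0.75, the latter -0.32 after the regression. All 3 collagen genes were above 5 TPM in each of the 12 undetected Postn-traced cells. Fn1, fibronectin, differed by 0.09, or -0.08 after the regression, in Postn-traced cells, where it was above 5 TPM in all 27, and by 2.85 in Tcf21-traced cells, or 0.73 after the regression. Fbn1, fibrillin 1, differed by 0.70 and 0.01 and Mfap2, a microfibril protein, by -0.13 and 0.51, and both changed sign with scale in each class, with means in TPM to -0.56 for Fbn1 in Tcf21-traced cells, to 0.24 and -0.30 for Mfap2 and with medians to -0.34 for Fbn1 in Postn-traced cells. Eln, elastin, was lower in detected Postn-traced cells by -1.53 and differed by 0.50 in Tcf21-traced cells. Ctgf, a matricellular growth factor regulator, differed by 1.72 and by 0.33, the latter -1.35 after the regression and -0.41 with means in TPM. Adam12, a metalloprotease, differed by -0.33 in Postn-traced cells, or 0.80 with medians, and was in 11 of 22 against 3 of 22 Tcf21-traced cells. In Postn-traced cells, Col1a1, Col1a2, Col3a1 and Fn1 were therefore on with and without Acta2, at similar levels. This did not hold for every collagen gene, as given below for Col4a2 and Col12a1.

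Lox, the lysyl oxidase that crosslinks collagen and elastin, had values of 4.73, 8.46 and 9.82 in detected and 0, 7.92 and 9.71 in undetected Postn-traced cells (lowest, median, highest), and 0, 8.94 and 10.24 against 0, 5.55 and 10.81 in Tcf21-traced cells. The differences were 1.72 and 2.97, or 1.21 in each class after the regression. Lox was 1 of the 152 shared higher genes that kept over 1 log2 unit in both classes after adjustment. Wisp1 (CCN4), a matricellular target of Wnt signalling, was in 8 of 15 against 4 of 12 Postn-traced cells and in 15 of 22 (45.1% to 86.1%) against 2 of 22 Tcf21-traced cells (1.12% to 29.2%), with differences of 1.29 and 3.78. Tnc, tenascin C, did not pass the filter and differed by 2.10 in Postn-traced cells, where it was in 12 of 15 against 7 of 12, and by 0.96 in Tcf21-traced cells, turning to -0.54 after the regression.

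Further matrix genes gave 28 considered of 32, with medians of 0.35 and 0.45, the latter -0.38 after the regression, -0.17 within the cells below and above the class median of genes per cell and -0.15 with means in TPM. In both classes 5 were higher, against 13.3% of all considered genes, and 0 lower, and after the regression 2 of the 28 were higher, against 3.73%, Cthrc1 and Col12a1. Cthrc1, a secreted collagen triple helix protein of activated fibroblasts, lay between 10.21 and 12.94 in detected and between 1.85 and 13.15 in undetected Postn-traced cells, with medians of 11.36 and 10.30. In Tcf21-traced cells the medians were 10.56 and 2.39, and Cthrc1 was in 21 of 22 (77.2% to 99.9%) against 10 of 22 cells (24.4% to 67.8%). Its difference of 5.42 there, 2.36 after the regression, exceeded the SD of either group, and in Postn-traced cells it was 2.07. Cthrc1 thus had the largest difference of means of this list in the Tcf21-traced cells. By the share of cells, Wisp1 of the panel stood further apart, in 15 of 22 against 2 of 22. Col12a1, a collagen that binds the surface of collagen fibrils, was in 9 of 15 against 2 of 12 and in 14 of 22 against 6 of 22 cells, and differed by 2.69 and 2.85. The other 3, chosen after their values were seen, are Col4a2 of basement membrane (3.52 and 1.24, the latter -0.29 with means in TPM), Col8a1 (1.64 and 1.70, the latter 0.14 after the regression) and the lysyl oxidase relative Loxl3 (1.65 and 2.44, the latter 0.26).

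In the TGF-beta list, a pathway that drives αSMA in cultured fibroblasts, 17 of 23 genes were considered, with medians of 0.04 and 1.25, the former -0.09 after the regression, -0.05 within the cells below and above the class median of genes per cell and -0.13 with a pseudocount of 0.1. In both classes 5 were higher, against 13.3% of all considered genes, and 0 lower, and after the regression 0 were higher, against 3.73%. Ltbp2, a latent binding protein relative of microfibrils, was in 11 of 15 against 7 of 12 Postn-traced and 18 of 22 against 9 of 22 Tcf21-traced cells. Its differences were 1.65 and 2.45, the latter 0.76 after the regression. Also higher were the ligand Tgfb3 (1.06 and 1.62), the inhibitor Smad7 (1.30 and 1.84) and the focal adhesion coactivator Tgfb1i1 (1.20 and 1.53), with 0.30, 0.95 and 0.81 after the regression in Tcf21-traced cells, chosen after their values were seen. The ligand Tgfb1 was above 5 TPM in 1 of the 71 cells, so its level could not be compared. Of 16 integrins, through which myofibroblasts hold the matrix, 5 were considered, with medians of 0.13 and 0.90, the former -0.34 after the regression and -0.55 within the cells below and above the class median of genes per cell and the latter 0.16 after the regression. None was counted in both classes, against 13.3% higher and 1.45% lower of all considered genes. After the regression 1 of the 5 was lower in both, against 4.36%. Itga5, the fibronectin receptor chain, differed by 1.88 and 0.90, the latter -0.71 after the regression and -0.36 within the cells below and above the class median of genes per cell, and Itgav, a chain of TGF-beta activating integrins, by 0.60 and 2.07, the former -0.10 with means in TPM.

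Genes of the endoplasmic reticulum that fold and modify collagen were all considered, 27 of 27, with medians of 0.85 and 1.25, or 0.29 and 0.12 after the regression. In both classes 5 were higher, against 13.3% of all considered genes, and 0 lower. After the regression P4ha3 alone was higher, 1 of 27, which is close to the 3.73% of all considered genes. P4ha3, a prolyl hydroxylase subunit, differed by 2.08 and 2.81, or 1.43 and 1.99 after the regression, and was in 14 of 22 against 4 of 22 Tcf21-traced cells. Sec61b, part of the translocation channel, differed by 2.40 and 1.64, the latter turning to -0.04 after the regression. The other 3, chosen after their values were seen, were the disulfide isomerase Pdia4 (1.12 and 2.62), the lysyl hydroxylase Plod3 (1.88 and 1.25) and the procollagen protease Bmp1 (1.39 and 1.05), where the Tcf21-traced differences of the last pair turned to -0.69 and -0.98 after the regression and that of Bmp1 to -0.99 with means in TPM.

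Resting fibroblast genes mostly went the other way. Of 26 listed, 21 were considered, with medians of -1.09 in Postn-traced and -2.09 in Tcf21-traced cells, and -0.94 and -2.29 after the regression. In Postn-traced cells 12 of the 21 were lower, against 12.5% of all considered genes, and in Tcf21-traced cells 17, against 4.6%, and in both classes 10 were lower, against 1.45%, and 0 higher. In Postn-traced cells 2 were higher, against 25.7%, and in Tcf21-traced cells 0, against 41.7%. The 2 are Igfbp6 (1.79) and Cd34 (1.05), with -1.02 and -2.55 in Tcf21-traced cells. After the regression 9 were lower in both, against 4.36%, not all of them the same genes. Gsn, gelsolin, which severs and caps actin filaments, is among the most abundant mRNAs of resting cardiac fibroblasts. In Postn-traced cells Gsn had values of 3.58, 8.09 and 10.20 in detected and 6.59, 9.75 and 14.09 in undetected cells (lowest, median, highest), and in Tcf21-traced cells 1.75, 8.87 and 12.46 against 6.52, 11.75 and 14.27. Its differences of -2.36 and -2.62 were larger than the SDs, which lay between 1.87 and 2.25, and after the regression they were -2.44 and -2.05. Gsn was on in nearly all cells, so this was a difference of level and not of detection. Htra3, a secreted serine protease, was in 10 of 15 against 11 of 12 and in 15 of 22 (45.1% to 86.1%) against 21 of 22 cells (77.2% to 99.9%), and differed by -2.32 and -3.58.

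Others of the 10, apart from C3 chosen after their values were seen, include Tcf21 itself, the transcription factor of resident fibroblasts. Tcf21 was above 5 TPM in 6 of 15 against 7 of 12 Postn-traced cells and in 11 of 22 against 15 of 22 Tcf21-traced cells, with medians of 0 against 5.98 and 1.92 against 5.98. Its differences of -1.81 and -1.99 were within the SD, and the groups overlapped from 0 to over 9. Dpep1, a membrane dipeptidase, differed by -1.71 and -3.88 and was in 12 of 22 against 20 of 22 Tcf21-traced cells. Pi16, a peptidase inhibitor of adventitial fibroblasts (-1.12 and -2.43), Cd55, a complement regulator (-2.07 and -1.09), Igfbp4, an IGF-binding protein (-1.09 and -2.53) and Smoc2, a matricellular protein (-2.68 and -1.51) were lower as well, and so was C3. After the regression Pi16 and Igfbp4 in Postn-traced cells (-0.80 and -0.68) and Smoc2 in Tcf21-traced cells (-0.83) were under the size counted. The direction of Igfbp4 in Postn-traced cells rested on the mean, as the difference of medians was 0.22. Pdgfra, the receptor common to cardiac fibroblasts and outside the rule for naming genes, differed by 0.20, or -0.53 with medians and -0.10 with means in TPM, and by -0.45, or -1.51 after the regression, so it was not lower in both classes.

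Among the 10 genes with the most negative shared differences are C1s, C1ra and C3. No list of complement genes was fixed, so these are described as single genes. C1s and C1ra encode the proteases of the first complement component and C3 the central component. C1ra was in 6 of 15 (16.3% to 67.7%) against 11 of 12 Postn-traced cells (61.5% to 99.8%), with medians of 0 and 6.59 and a difference of -4.50, larger than the SDs of 2.93 and 2.55. In Tcf21-traced cells it differed by -2.17, and C1s differed by -2.63 and -2.72. C3 had medians of 4.01 against 7.48 and 5.88 against 8.72, and differed by -2.84 and -2.09. Apoe, the lipid carrier apolipoprotein E, had the largest shared fall of all considered genes, with medians of 0 against 8.73 in Postn-traced and 0 against 6.88 in Tcf21-traced cells. It was in 5 of 15 (11.8% to 61.6%) against 10 of 12 (51.6% to 97.9%) and in 9 of 22 (20.7% to 63.6%) against 18 of 22 cells (59.7% to 94.8%), and its differences of -4.46 and -3.13 were -3.91 and -2.43 after the regression. Apoe was thus mostly absent from Acta2-detected cells, with single cells of up to 12.63. The rest of the 10 are Sqrdl, of mitochondrial sulfide oxidation (-2.52 and -2.60), Pcsk6, a proprotein convertase (-1.94 and -2.97), Cxcl1, a neutrophil chemokine (-1.90 and -1.87) and Hsd3b7, a steroid dehydrogenase (-1.84 and -1.88), beside Gsn and Htra3. All 10 kept a difference beyond -1 in both classes after the regression, the smallest being -1.57 for C1s in Tcf21-traced cells.

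The 15 genes with the largest shared rise include Cnn2, Csrp2 and Col12a1, described above. Of those in none of the lists, Pdlim1, a PDZ-LIM protein that binds alpha-actinin, differed by 4.14 and 2.82 and was in 13 of 15 against 6 of 12 Postn-traced cells. Wdr1, which helps cofilin to take actin filaments apart, was in all 22 detected Tcf21-traced cells at no less than 4.72, and differed by 3.10 and 2.66. Dpysl3, a cytoskeletal protein of the collapsin response family, differed by 2.72 and 2.96. These 3 kept between 1.38 and 3.66 after the regression. Ecscr, a small membrane protein named from endothelial cells, was in 9 of 15 against 1 of 12 Postn-traced and 12 of 22 against 6 of 22 Tcf21-traced cells, with differences of 4.20 and 2.90, while at least 1 of the 4 endothelial marker genes in the table, with Tek the most abundant, was above 5 TPM in 2 of 15 against 2 of 12 and in 5 of 22 against 9 of 22 cells. The remaining 8 have general roles. They are Psma1 of the proteasome (3.27 and 4.49), Cetn2 of the centriole (3.15 and 3.57), Vps29 of the retromer (3.12 and 3.75), Tpi1 of glycolysis (2.99 and 4.24), Tmem208 of the endoplasmic reticulum (2.85 and 3.15), Eci2 of fatty acid oxidation (3.23 and 2.82), Cks1b, a subunit of cyclin-dependent kinases (2.79 and 3.56) and Mrps16 of the mitochondrial ribosome (2.78 and 2.73). Each had cells at 0 in every group, and of the 15 genes only Csrp2 in Tcf21-traced cells came under 1 after the regression.

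Immediate early genes, which rise within minutes of a stimulus and also during dissociation, had negative medians in the traced classes. Of 19 listed, 17 were considered, with medians of -1.14 and -0.58, and -1.10 and -1.22 after the regression, and in both classes 5 were lower, against 1.45% of all considered genes, and 0 higher. In Postn-traced cells 10 of the 17 were lower, against 12.5% of all considered genes, and 0 higher, against 25.7%. In Tcf21-traced cells 5 were lower, against 4.6%, and 1 higher, against 41.7%. Btg2, an antiproliferative early gene, had medians of 8.78 against 9.99 and 8.23 against 9.82, with differences of -1.55 and -1.48. Klf4, a transcription factor that represses smooth muscle genes, was in 12 of 15 against 12 of 12 and 19 of 22 against 21 of 22 cells, and differed by -1.33 and -2.33. The other 3, chosen after their values were seen, were Junb (-1.15 and -1.09), Egr1 (-1.14 and -1.29) and Zfp36, which speeds mRNA decay (-1.09 and -1.72). None of the 5 exceeded the spread between cells of a group. In infarct cells not labelled as traced, described below, the list had a median of -0.01 in the capture of the Tcf21-traced cells and 0.57 in the scar capture. For all considered genes the medians were 0.30 and 0.62. In each capture 3 genes of the list were higher (17.6%), against 29.3% and 37.5% of all considered genes, and 0 lower, against 15.8% and 6.31%. Without the sparse cells of the scar capture the median there was -0.61, against 0.13 for all considered genes. Of the list 5 genes were then lower (29.4%, against 16.9%) and 1 higher (5.88%, against 23.8%).

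Of 27 listed cell cycle genes, 5 were considered, with medians of 0.30 in Postn-traced cells, which turned to -0.31 after the regression and -0.23 within the cells below and above the class median of genes per cell, and of 2.52 in Tcf21-traced cells, 2.16 after the regression. In both classes 1 of the 5 was higher, against 13.3% of all considered genes, and 0 lower, against 1.45%. After the regression 1 was higher in both, against 3.73%. In Postn-traced cells 1 was higher, against 25.7%, and in Tcf21-traced cells all 5 were, against 41.7%. The gene higher in both before the regression is Stmn1, stathmin, which takes microtubules apart. It was in 7 of 15 against 1 of 12 and 11 of 22 (28.2% to 71.8%) against 1 of 22 cells (0.115% to 22.8%). H2afz, a histone variant, differed by 0.49, or -0.31 after the regression and -0.32 with means in TPM, and by 2.52. The 22 listed genes that were too rare to be considered were counted in each cell, a count and a minimum of 5 genes that were chosen after the values were seen. At least 5 of them were above 5 TPM in 7 of the 22 detected Tcf21-traced cells (31.8%, 13.9% to 54.9%), which held between 7 and 21 of the 22, and in 0 of the 22 undetected cells (up to 15.4%), where a cell held at most 3. In Postn-traced cells it was 0 of 15 (up to 21.8%) and 0 of 12 (up to 26.5%). Mki67, the Ki-67 proliferation antigen, was above 5 TPM in 6 of the 22 detected (10.7% to 50.2%) and 0 of the 22 undetected Tcf21-traced cells. The cells with 5 or more cycle genes were thus all Acta2-detected in the traced classes, with Acta2 between 2.75 and 10.22.

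These 7 cells had a median of 4522 genes above 5 TPM, more than the 4031.5 of all detected Tcf21-traced cells. Without them the medians of genes per cell differed by 704, against 1150.5 with them, so they carry part of that shift. The shared genes without them were 467 higher, of which 433 were among the 566, and 74 lower, of which 58 were among the 62. The contractile median in Tcf21-traced cells was 2.09 with and without them, and that of the myofibroblast panel was 1.47 without them. How far a broad library lets rare cycle genes be seen was not tested.

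**Figure D4:**
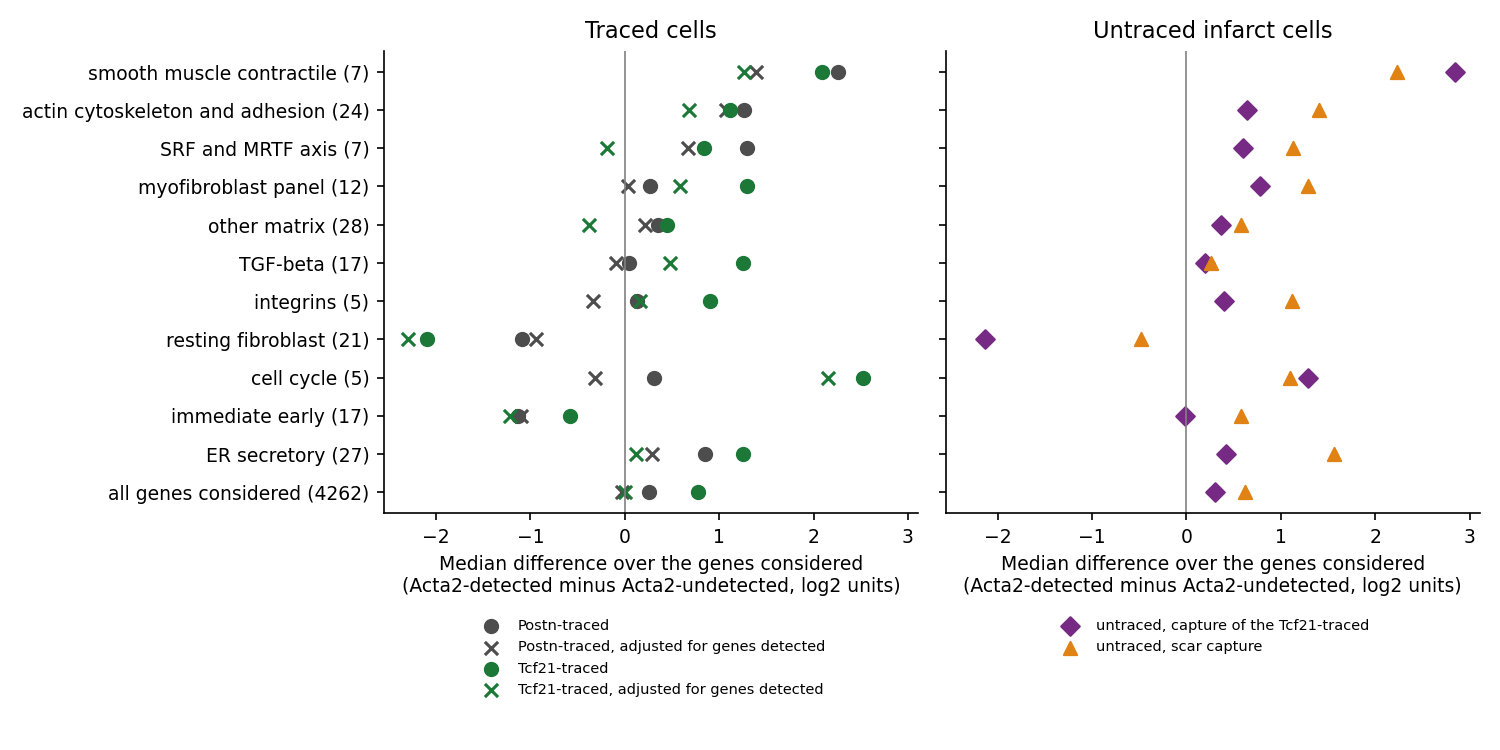
Median differences (detected minus undetected, log2 units) of each gene list, with the number of genes considered in brackets, in traced cells (left, crosses after adjustment for genes per cell) and in infarct cells not labelled as traced (right). The contractile median is above 1 and the resting fibroblast median is under 0 in each of the 4 sets, against all-gene medians between 0.25 and 0.78.

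The graded level of Acta2 within the detected cells was compared with the other genes as a description over cells of a capture, with the mean of the 7 contractile genes and that of the 21 resting fibroblast genes in each cell. In Tcf21-traced cells Acta2 had a Spearman correlation of 0.78 with the contractile mean over 22 cells, and of 0.48 in Postn-traced cells over 15. With Tagln alone it was 0.44 and 0.41. With the resting fibroblast mean it was -0.31 and -0.12. These values use the Acta2 level that chose the cells, and beside the genes per cell given above, at 0.10 and 0.79, they do not separate the part of depth, which was not tested.

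The genes were then looked at in infarct cells that the rule did not use, those not labelled as traced, split by Acta2 in the same way. The capture of the Tcf21-traced cells held 19 of these, labelled Postn-positive, of which 11 were Acta2-detected, and the capture of scar cells held 32, of which 8 were. Of the 32 cells, 29 were labelled as untraced cells from scar and 3 as Postn-positive. In the capture of the Postn-traced cells only 3 of 30 such cells were detected, under the minimum of 5 per group, and their gene differences were not computed. Genes per cell differed by medians of 467, 275 and 616 in these captures, again higher in detected cells. In the 19 cells, 1248 of the 4262 genes were counted as higher in detected cells (29.3%) and 675 as lower (15.8%), and of the 566 shared genes 194 were higher (34.3%) and 85 lower. Of the 62 shared lower genes 30 were lower (48.4%) and 5 higher (8.06%), with a median difference of -0.99 against 0.30 for all genes. In the capture of scar cells 1597 genes were higher (37.5%) and 269 lower (6.31%), and of the 566 genes 248 were higher (43.8%). Of the 62 genes only 5 were lower there (8.06%), with a median of 0.16, and 18 were higher.

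The scar capture held 7 cells with under 50% of the median genes of their capture, 6 of them Acta2-undetected. Without them, an alternative chosen after seeing the data, 7 detected and 18 undetected cells remained, 174 of the 566 genes were higher (30.7%, against 23.8% of all genes) and 21 of the 62 were lower (33.9%, against 16.9%) and 11 higher (17.7%), with a median of -0.60. The shared lower genes were therefore lower more often than all genes in the 19 cells and, once its sparse cells were left out, in the scar capture, where with all cells the shares were close, while the shared higher genes stood only a little over the share of all genes in either. Of the 152 that also passed the regression, 66 were higher in the 19 cells (43.4%, against 29.3% of all genes) and 21 lower. In the scar capture with all cells 73 were higher (48%, against 37.5%) and 4 lower. Without its sparse cells 51 were higher (33.6%, against 23.8%) and 18 lower. The contractile list was steadier. Its median was 2.85 in the 19 cells and 2.23 in the scar capture, 2.11 without the sparse cells, with 5 of 7 genes higher and 0 lower in each case. The resting fibroblast median was -2.14 with 16 of 21 lower in the 19 cells, and -0.48 with 2 of 21 lower in the scar capture, or -1.41 with 14 of 21 without the sparse cells. Of cells with 5 or more cycle genes, the 19 cells held 4 of 11 detected (10.9% to 69.2%) and 1 of 8 undetected (0.316% to 52.7%), and the scar capture 1 of 8 and 1 of 24, so outside the traced classes cycling cells were found in both Acta2 groups. In the scar capture both cycling cells, with Acta2 at 10.89 and at 0, carried the Postn-positive label and not the scar label.

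In all 4 sets together, 95 genes were higher (2.23% of those considered) and 3 lower by over 1 log2 unit, a selection made after the values were seen. Without the sparse cells of the scar capture it was 66 genes, 63 of them among the 95, and 9 lower, and 31 of the 95 were also higher in both traced classes after the regression. The 3 genes with the largest smallest difference were Cnn2, Tagln and Tpm2. Cnn2 differed by 3.45 and 4.42 in the traced classes, by 3.23 in the 19 cells and by 3.84 in the scar capture. For Tagln the values were 5.93, 2.61, 4.11 and 2.80, and for Tpm2 at least 2.37, with 5.51 in the 19 cells. Vcl, with at least 2.06 in each set, Palld, the actin scaffold palladin, with at least 1.80, and Myl9, with at least 1.37, were also among the 95, where the regression left 0.67 for Tagln, 0.68 for Vcl and 0.57 for Palld in Tcf21-traced cells. Lox was as well, with at least 1.72, but in the scar capture without its sparse cells it differed by 0.76. The 3 lower genes were Dpep1 (at most -1.69), Pi16 (at most -1.12) and Rarres2, the chemoattractant chemerin (at most -1.08). By their selection, Cnn2, Tpm2 and, before adjustment, Tagln were higher and Dpep1 lower in cells with Acta2 in each of the 4 sets computed, though with means in TPM Dpep1 differed by only -0.96 and -0.77 in the traced classes, while the level of Postn and of type I collagen separated them little in the Postn-traced class.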

How the data were processed

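The authors deposited log2 (TPM+1) values for 17171 genes in 185 cells. The submitters' processing notes name Bowtie 1.0.0, eXpress 1.5.1 and mm10. The title of the table says FPKM, but the deposited values of a cell, converted back, sum to between 999257 and 1000000, as TPM does. The 3 columns without a sample were not used. The depth of a cell is not known, so the genes above 5 TPM stand in for it. Differences are means of the deposited log2 values over Acta2-detected minus Acta2-undetected cells within a class, for genes above 5 TPM in at least 25% of the cells of each class, with Acta2 left out. Genes named are the 15 highest and 10 lowest by the smaller difference of both classes among the shared genes, the considered genes of the contractile list and the myofibroblast panel, and the 2 genes of each other list with the largest smaller difference, and the text marks exceptions as chosen after their values were seen. Some listed genes are not reported here. The members and lists were chosen with earlier results of these data known. Shares have exact Clopper-Pearson intervals. Gene models were from GENCODE M21 and promoters from RefSeq. The calculation was tested on simulated data. Alternatives changed the Acta2 threshold, the summary over cells, the pseudocount, the scaling, the gene filter, the size counted, the cells kept and the adjustment for genes per cell. Software versions are SciPy 1.17.1, pandas 2.3.3, Matplotlib 3.10.9, NumPy 2.4.6 and Python 3.11.15.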

Additional observations from a re-analysis of the deposited data

How the results depend on the processing

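The 566 genes higher and 62 lower in both classes depended on how values were averaged, adjusted and counted, and the cause was not tested. The Acta2 threshold changed which genes were shared, as above 1 TPM 343 of the 566 and 38 of the 62 remained, and above 0 it was 304 and 34. With means of TPM the counts were 203 and 149, with medians over cells 99 were lower, with pseudocounts of 0.1 and 5 there were 992 and 254 higher, and with each cell centred 40 were lower. Adjusted by regression on genes per cell the counts were 159 and 186, and within the cells below and above the class median 270 and 126. Fewer genes considered, at 50% of cells, left 290 higher, and by construction a size of 0.5 gave 1234 and 164, a size of 2 gave 77 and 7, and a difference in shares over 25 percentage points gave 154 and 8. Of the alternatives chosen after seeing the data, leaving out cells under 2500 genes gave 121 lower, and leaving out sparse cells of the scar capture gave 21 in place of 5 of the 62 genes lower there, and 66 and 9 in place of 95 and 3 genes in all 4 sets. Leaving out cells without Postn or with 5 or more cycle genes, also chosen after seeing the data, gave 545 and 467 higher and 74 lower in each. Tpm1 in Tcf21-traced cells reversed to -0.30 with any Acta2 above 0 and to -0.35 by the regression, and Sec61b in Tcf21-traced cells to -0.037 by the regression, and the cause was not tested. Of 5700 differences of the 57 genes named by the rule, 5686 moved by less than the SD between cells, some of them small differences that changed sign, and 11 by more, and only differences counted in both classes were scored as reversed. The contractile medians lay between 0.79 and 2.59 in Postn-traced and 0.66 and 2.52 in Tcf21-traced cells over the alternatives, and the differences in genes per cell between 164.5 and 529 and between 591.5 and 1474.5. Leaving out 1 cell at a time gave 507 to 681 higher and 54 to 73 lower genes, 197 to 313 and 1044 to 1257 genes per cell, contractile medians of 1.78 to 2.42 and 1.75 to 2.21, and panel medians of 0.03 to 0.44 and 1.10 to 1.42. No paired analysis was possible because no label ties a detected to an undetected cell. With 15, 12, 22 and 22 cells per group and the depth of a cell unknown, a gene at 0 may be unexpressed or missed. Class and capture cannot be told apart, and cells of 1 mouse cannot be told from those of another.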
